A study of Mus musculus with 6 samples.

Results

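The genes described here are those of the proteasome, its activators, its inhibitor and its assembly chaperones, taken as every row of the expression table whose mouse symbol begins with *Psma*, *Psmb*, *Psmc*, *Psmd*, *Psme*, *Psmf* or *Psmg* followed by a number, without pseudogene rows marked -ps. This rule took 37 of the 38739 genes in the table, and all 37 were above 0 in at least 1 sample, so that none was lost to the filter on genes at 0. Of these, 13 encode subunits of the core particle (7 of the alpha rings and 6 of the beta rings) and 14 encode subunits of the regulatory particle (5 ATPases, 2 other subunits of the base and 7 of the lid). The remaining members are 4 genes of activators or the inhibitor, 2 chaperones of the core, 2 chaperones of the base, and 2 genes that the symbols take in although their products are not subunits, *Psmc3ip* and *Psme3ip1*. The mouse annotation holds 51 genes that the rule would take. The other 14, among them *Psmb1*, *Psmb5*, *Psmb8*, *Psmb9*, *Psmc6*, *Psmd2*, *Psmd6*, *Psme1* and *Psme2*, are not analysed here.

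The proteasome degrades proteins that carry chains of ubiquitin. Its core particle is a barrel of stacked rings, with the proteolytic sites inside the beta rings and a gate formed by the alpha rings, and its regulatory particle caps the barrel, binds ubiquitinated proteins, removes the ubiquitin, and unfolds and threads the proteins with a ring of ATPases. In cells of the immune system, interferon-inducible beta subunits can replace the constitutive ones to form the immunoproteasome, which shapes the peptides presented by MHC class I, and the proteasome is also needed for the degradation of the inhibitor that holds NF-κB in the cytoplasm.

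Total RNA of peritoneal neutrophils was sequenced in 2 groups of 3 samples. All mice were 8-week-old males of the C57BL/6 strain, and all 6 samples carried the same deletion of cGAS (cyclic GMP–AMP synthase, the sensor of cytosolic DNA), so that no wild-type neutrophils enter any comparison. The cells were washed from the peritoneum 2 h after an injection of thioglycolate and kept for 2 h either in medium (untreated) or with 500 ng/mL of LPS from *E. coli* 026:B6, as the sample labels say. The methods of the study give a lower dose. The comparison asks how LPS, the endotoxin of Gram-negative bacteria, changed these transcripts in cGAS-/- neutrophils. The sources call the samples triplicates without saying whether they came from separate mice, so the p-values measure the spread between these samples, which may be technical.

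The values, deposited as normalized counts, are read here as TPM, a measure of transcript abundance per transcript length relative to a fixed total. Each is taken as the mean of a gene's transcripts after division by a factor of the sample, and is called scaled TPM below. This reading was inferred from the values. Because of the averaging, a gene with many annotated transcripts reads lower, and values are compared here between samples of the same gene and not between genes. The number of reads is unknown. *Cgas* itself read 0.029 to 0.307 in the 6 samples. The 10 neutrophil markers in the table summed to 9565 to 27130 in untreated and 14840 to 49720 in LPS samples, the 4 B cell markers to 142 to 542 and 66.7 to 236, the 8 macrophage and monocyte markers to 12.6 to 36.01 and 35.1 to 51.6, the 5 T cell markers to 4.76 to 14.8 in all 6 samples, the 3 mast cell markers to 4.69 to 49.1 and the 4 eosinophil markers to at most 1.90, with *Epx* at 0 throughout. The neutrophil sum is mostly that of *S100a8* and *S100a9*. Of the 10 neutrophil markers, 0 were above and 3 below in LPS samples without overlap, *Cxcr2*, *Csf3r* and *Ltf*, with *Cxcr2* at 39.4 to 119.9 against 7.10 to 23.6 scaled TPM. Of the 8 macrophage and monocyte markers, 1 was above, *C1qb*, and 2 were below, *Mrc1* and *Ccr2*. *C1qb* read 0.712 to 4.75 against 17.33 to 23.95 scaled TPM. Of all genes tested, 13.1% were above and 9.75% below without overlap. Protein-coding genes took 21.0% to 28.3% of the summed values in untreated and 49.7% to 58.9% in LPS samples. The scaling of the table therefore bears on every fold change below, and values after rescaling to the same protein-coding sum in each sample are given where they matter. Over all 23049 genes tested, an adjusted p under 0.05 was reached by 206 genes higher with LPS and by 218 lower, against 119 and 390 with the same protein-coding sum.

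Called higher in LPS samples were 3 members, *Psma5* and *Psma1* of the alpha rings and *Psmd14* of the lid, and none was called lower. These 3 were called both by the limits of the study (log2 fold change beyond 2, with p under 0.01 before adjustment) and by an adjusted p under 0.05. The same rules called 1.69% and 0.894% of all genes tested higher, and 4.89% and 2.48% of the 5894 protein-coding genes with a mean of at least 1. By limma, 0 members were lower by either rule, where 1.31% and 0.946% of all genes tested and 0.747% and 0.713% of the protein-coding genes were. At an unadjusted p under 0.05, 12 members were higher and 0 lower, where 10.3% and 6.66% of all genes tested and 20.5% and 7.48% of the protein-coding genes were. The log2 fold change, LPS minus untreated on log2(scaled TPM + 1), was positive in 33 of 37 members, and in 29 with the same protein-coding sum. It was positive in 52.9% and negative in 47.1% of all genes tested, and positive in 64.9% and negative in 35.1% of the protein-coding genes with a mean of at least 1. With the same protein-coding sum, 10118 of all 23049 genes tested and 2981 of these 5894 protein-coding genes were positive. The lowest LPS sample exceeded the highest untreated sample in 14 members, the reverse held in 0, and in 23 the groups overlapped, where 13.1% of all genes tested lay above and 9.75% below, and 24.6% and 9.89% of the protein-coding genes. With the same protein-coding sum, 9 members lay above, and *Psmb3* and *Psmc4* lay below. The shares of genes without overlap given here are those of the deposited scaling. They were not counted with the same protein-coding sum, so these counts of members stand without a reference. In these bulk samples, fewer cells of a type and less RNA per cell cannot be told apart.

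**Figure D1:**
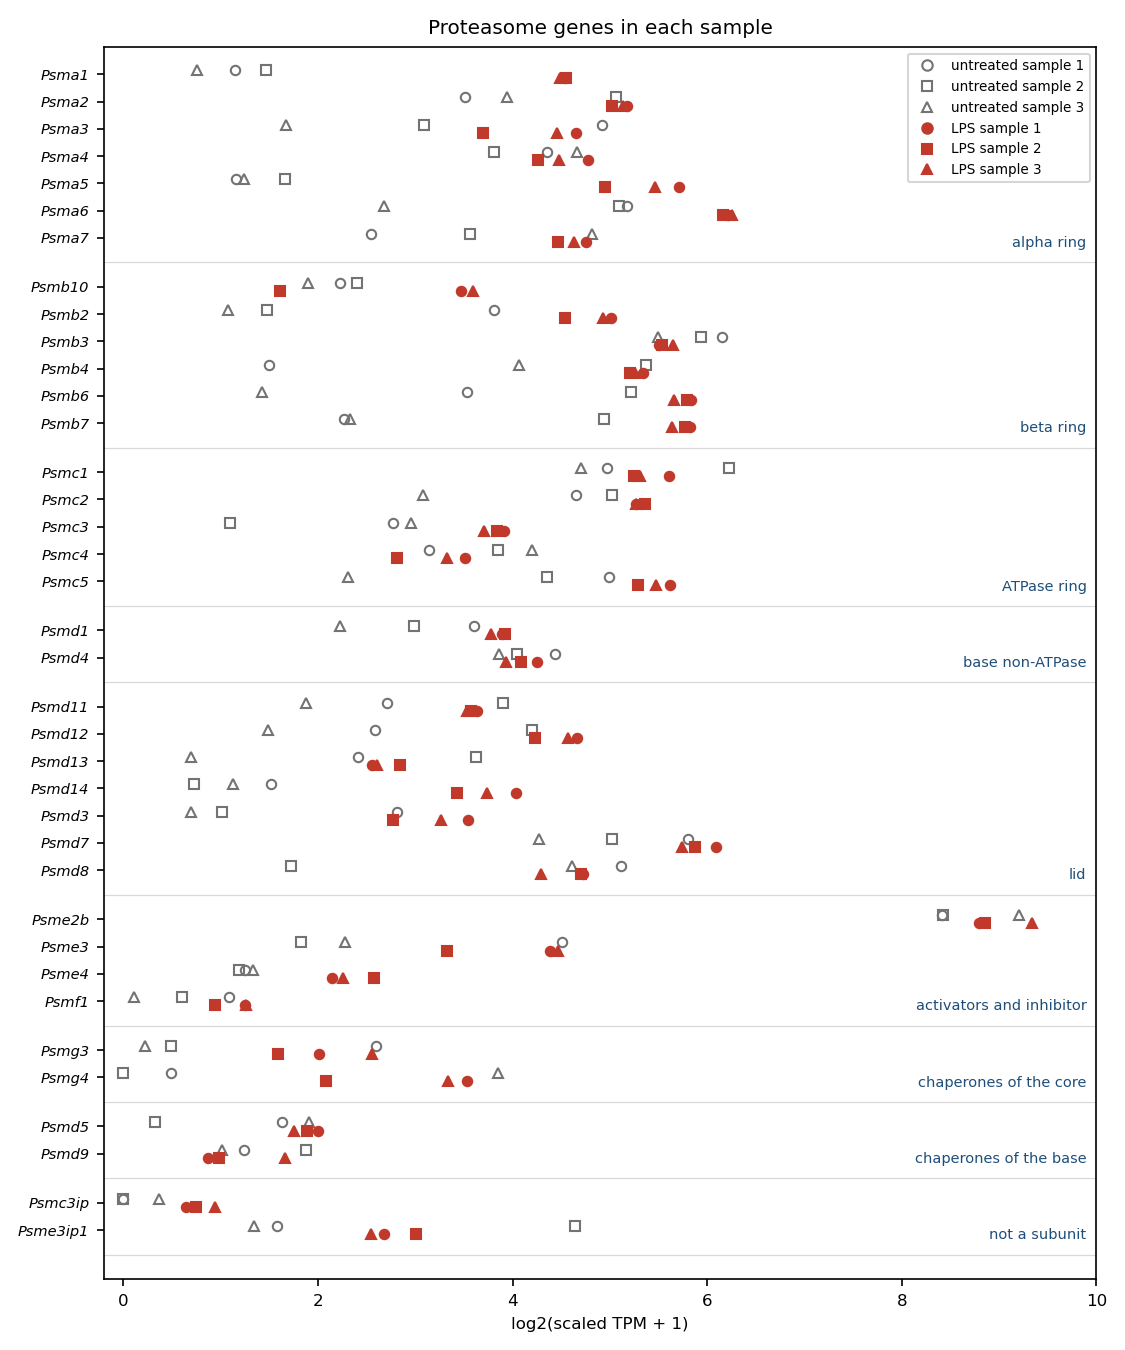
Scaled TPM of each of the 37 members as log2(scaled TPM + 1) on the x axis, with genes grouped by structural class on the y axis. Each symbol is 1 sample, open grey for untreated and filled red for LPS, and its shape gives the sample number. For *Psma1*, *Psma5* and *Psmd14* the red symbols lie far to the right of the grey ones, and in most other genes the grey symbols are spread out while the red ones lie close together.

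The promoters of the 3 called members are shown beside those of *Psmb3* and *Psmc4*, the members of the beta and ATPase rings with the most negative log2 fold change, so that the upstream sequence of genes with different values can be read together. Each line holds the 250 bases before the annotated start, 5′ to 3′ on the strand of the gene, from RefSeq on GRCm38.p6, and the capitals mark the CCAAT box, a motif common in promoters of widely expressed genes, or its reverse complement ATTGG. The windows are, in this order, chr3:108256676-108256925 on the plus strand, chr7:114276117-114276366 on the minus strand, chr2:61711444-61711693 on the plus strand, chr11:97703184-97703433 on the plus strand and chr7:28050093-28050342 on the minus strand.
Psma5: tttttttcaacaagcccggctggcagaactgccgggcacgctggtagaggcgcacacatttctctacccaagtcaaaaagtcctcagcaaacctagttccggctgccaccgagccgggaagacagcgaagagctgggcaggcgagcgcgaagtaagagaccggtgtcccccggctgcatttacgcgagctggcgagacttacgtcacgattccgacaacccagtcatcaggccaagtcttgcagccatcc
Psma1: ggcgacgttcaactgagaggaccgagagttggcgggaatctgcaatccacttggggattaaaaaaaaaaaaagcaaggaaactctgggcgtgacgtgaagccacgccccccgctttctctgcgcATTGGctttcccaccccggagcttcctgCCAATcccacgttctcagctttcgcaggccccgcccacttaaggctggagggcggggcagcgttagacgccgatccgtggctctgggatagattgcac
Psmd14: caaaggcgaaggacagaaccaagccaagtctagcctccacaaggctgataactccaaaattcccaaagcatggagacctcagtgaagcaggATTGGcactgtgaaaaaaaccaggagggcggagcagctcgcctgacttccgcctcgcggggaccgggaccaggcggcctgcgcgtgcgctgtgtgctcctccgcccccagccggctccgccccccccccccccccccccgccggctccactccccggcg
Psmb3: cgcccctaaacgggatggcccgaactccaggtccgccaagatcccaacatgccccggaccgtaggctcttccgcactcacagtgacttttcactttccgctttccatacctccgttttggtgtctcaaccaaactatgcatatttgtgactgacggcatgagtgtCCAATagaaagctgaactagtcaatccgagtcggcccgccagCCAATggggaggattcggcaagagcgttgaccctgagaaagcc
Psmc4: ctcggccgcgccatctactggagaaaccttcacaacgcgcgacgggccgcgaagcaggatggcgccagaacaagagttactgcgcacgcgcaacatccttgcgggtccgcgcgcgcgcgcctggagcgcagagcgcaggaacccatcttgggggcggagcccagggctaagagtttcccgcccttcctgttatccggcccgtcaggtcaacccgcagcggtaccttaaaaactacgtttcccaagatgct

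CCAAT boxes stand in the printed sequence of *Psma1*, *Psmd14* and *Psmb3*, and none in that of *Psma5* or *Psmc4*. Over windows of 300 bases (the same 250 and the next 50), which RefSeq gives for 32 of the 37 members, CCAAT on either strand was found in 13 members, 40.6%, and in 41.1% of all 27025 genes with such a window. The antioxidant response element TGACNNNGC was found in 4 members, 12.5%, and in 13.99% of all genes. The IRF element, taken as a pair of GAAA with 2 bases between them, stood in 4 members, 12.5%, and in 3.99% of all genes, and these 4 were *Psmd4*, *Psmd9*, *Psmb3* and *Psmg4*, none of them called. A 10-base consensus of the NF-κB site was found in 6 members, 18.8%, and in 9.55% of all genes, and the 6 (*Psma7*, *Psmd13*, *Psme4*, *Psmd11*, *Psmd12* and *Psma6*) do not include the 3 called members. All motifs were searched on both strands, and no hit of a motif overlapped that of another in the members. These matches of letters describe the windows and were not set against the expression values by a test.

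The alpha rings, which gate the core and dock its caps, held the 2 members with the largest log2 fold changes. *Psma5* lies at chr3:108164086-108187298 on the plus strand of GRCm39. Its scaled TPM were 1.23, 2.16 and 1.37 in untreated samples 1, 2 and 3, and 51.4, 29.8 and 43.1 in LPS samples 1, 2 and 3, the order kept for all sample values below. Every LPS sample was more than 10-fold above every untreated one, and the lowest of them was LPS sample 2. The means were 1.58 ± 0.501 and 41.4 ± 10.9 scaled TPM (SD, n = 3 each), a log2 fold change of 4.02 with a standard error of 0.34 (adjusted p = 0.011, limma with Benjamini-Hochberg adjustment).

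*Psma1*, another alpha subunit, lies at chr7:113863679-113875409 on the minus strand. It read 1.21, 1.76 and 0.683 scaled TPM in untreated samples, and 22.3, 22.5 and 21.4 in LPS samples. The LPS samples were nearly level, and the groups did not overlap. Its log2 fold change was 3.41 with a standard error of 0.31 (adjusted p = 0.012, limma with Benjamini-Hochberg adjustment), from means of 1.22 ± 0.539 to 22.1 ± 0.559 scaled TPM (SD, n = 3 each).

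At the adjusted p, both calls depended on LPS samples 1 and 3. Without LPS sample 1 the adjusted p was 0.089 for each gene by limma, and without LPS sample 3 it was 0.073 for each, while the log2 fold changes stayed between 3.85 and 4.23 for *Psma5* and between 3.22 and 3.58 for *Psma1* when any sample was left out. Without LPS sample 1 or LPS sample 3, 1 gene in the whole table was higher at an adjusted p under 0.05.

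The other 5 alpha genes were higher in the mean of LPS samples without passing the test. *Psma6* read 35.2, 33.3 and 5.40 scaled TPM in untreated and 73.3, 70.9 and 75.3 in LPS samples, which did not overlap (log2 fold change 1.89, adjusted p = 0.249 by limma). The log2 fold changes of *Psma2*, *Psma3* and *Psma7* were 0.94, 1.04 and 0.98, and their groups overlapped. For *Psma2*, untreated sample 2 lay within the range of the LPS samples, and for *Psma3* and *Psma7* 1 untreated sample (number 1 and number 3) lay above every LPS sample. That of *Psma4* was 0.23, and −0.25 with the same protein-coding sum. *Psma3* shares its sequence with processed pseudogenes, described further on.

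In the beta rings, where the cutting sites lie, 3 genes had LPS samples above all untreated samples and none was called. *Psmb2*, a beta subunit without a proteolytic site, read 13.03, 1.79 and 1.11 scaled TPM in untreated and 31.2, 22.2 and 29.5 in LPS samples. Untreated sample 1 was far above the other 2, and it was still below LPS sample 2. From these values came a log2 fold change of 2.71 with a standard error of 0.75 (adjusted p = 0.134, limma with Benjamini-Hochberg adjustment).

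The proteolytic subunits *Psmb6*, which cuts after acidic residues, and *Psmb7*, which cuts after basic residues, varied widely among untreated samples. *Psmb7* read 3.82, 29.7 and 4.01 scaled TPM in untreated and 55.4, 53.5 and 49.0 in LPS samples, with untreated sample 2 standing apart from the other untreated samples. Its log2 fold change was 2.57 with a standard error of 0.76 (adjusted p = 0.154 by limma). For *Psmb6*, with 10.6, 36.3 and 1.68 against 56.1, 54.6 and 49.7 scaled TPM, the log2 fold change was 2.38 (adjusted p = 0.268 by limma), and again untreated sample 2 was the highest of its group.

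*Psmb10* encodes the interferon-inducible subunit that takes the place of *Psmb7* in the immunoproteasome, and is its counterpart in the table. It read 3.67, 4.29 and 2.74 scaled TPM in untreated and 10.1, 2.04 and 11.1 in LPS samples. LPS sample 2 lay below every untreated sample, at 19.3% of the mean of LPS samples 1 and 3, and the groups overlapped. *Psmb10* had a log2 fold change of 0.71 with a standard error of 0.60 (adjusted p = 0.551 by limma), and without 1 sample at a time it lay between 0.36 and 1.36. In LPS sample 2 the B cell markers were also lowest of the LPS samples, at 66.7 against 236 and 224 summed scaled TPM in LPS samples 1 and 3, and the neutrophil markers highest, at 49720 against 17340 and 14840. Their part in the value of *Psmb10* was not tested.

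*Psmb3*, a beta subunit without a proteolytic site, had the only negative value of the core. Its scaled TPM were 70.2, 60.1 and 44.0 in untreated and 44.5, 45.5 and 49.2 in LPS samples, so that untreated sample 3 lay below all LPS samples. The log2 fold change was −0.29 with a standard error of 0.29 (adjusted p = 0.593 by limma), −0.79 with the same protein-coding sum and 0.33 by voom. For *Psmb4* the untreated samples spanned 1.81 to 40.3 scaled TPM and the LPS samples 35.8 to 39.6, with a log2 fold change of 1.63 and a standard error of 0.96 (adjusted p = 0.449 by limma). Its value was 0.55 without untreated sample 1 and 2.49 without untreated sample 2.

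Taking the core as a whole, 12 of 13 log2 fold changes were positive, 2 members were called at the adjusted p, and 6 had LPS samples above all untreated ones. Of the protein-coding genes with a mean of at least 1, 64.9% were positive, 2.48% called higher and 24.6% above, and of all genes tested 52.9%, 0.894% and 13.1%. The median was 1.63, and 1.18 with the same protein-coding sum. For the 14 subunits of the regulatory particle these figures were 12 positive, 1 called and 6 above, with a median of 0.90, and 0.43 with the same protein-coding sum. The median was 0.95 over all 37 members, 0.013 over all genes tested and 0.37 over protein-coding genes with a mean of at least 1, and with the same protein-coding sum 0.53, −0.043 and 0.011. The difference between core and regulatory particle was not tested.

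**Figure D2:**
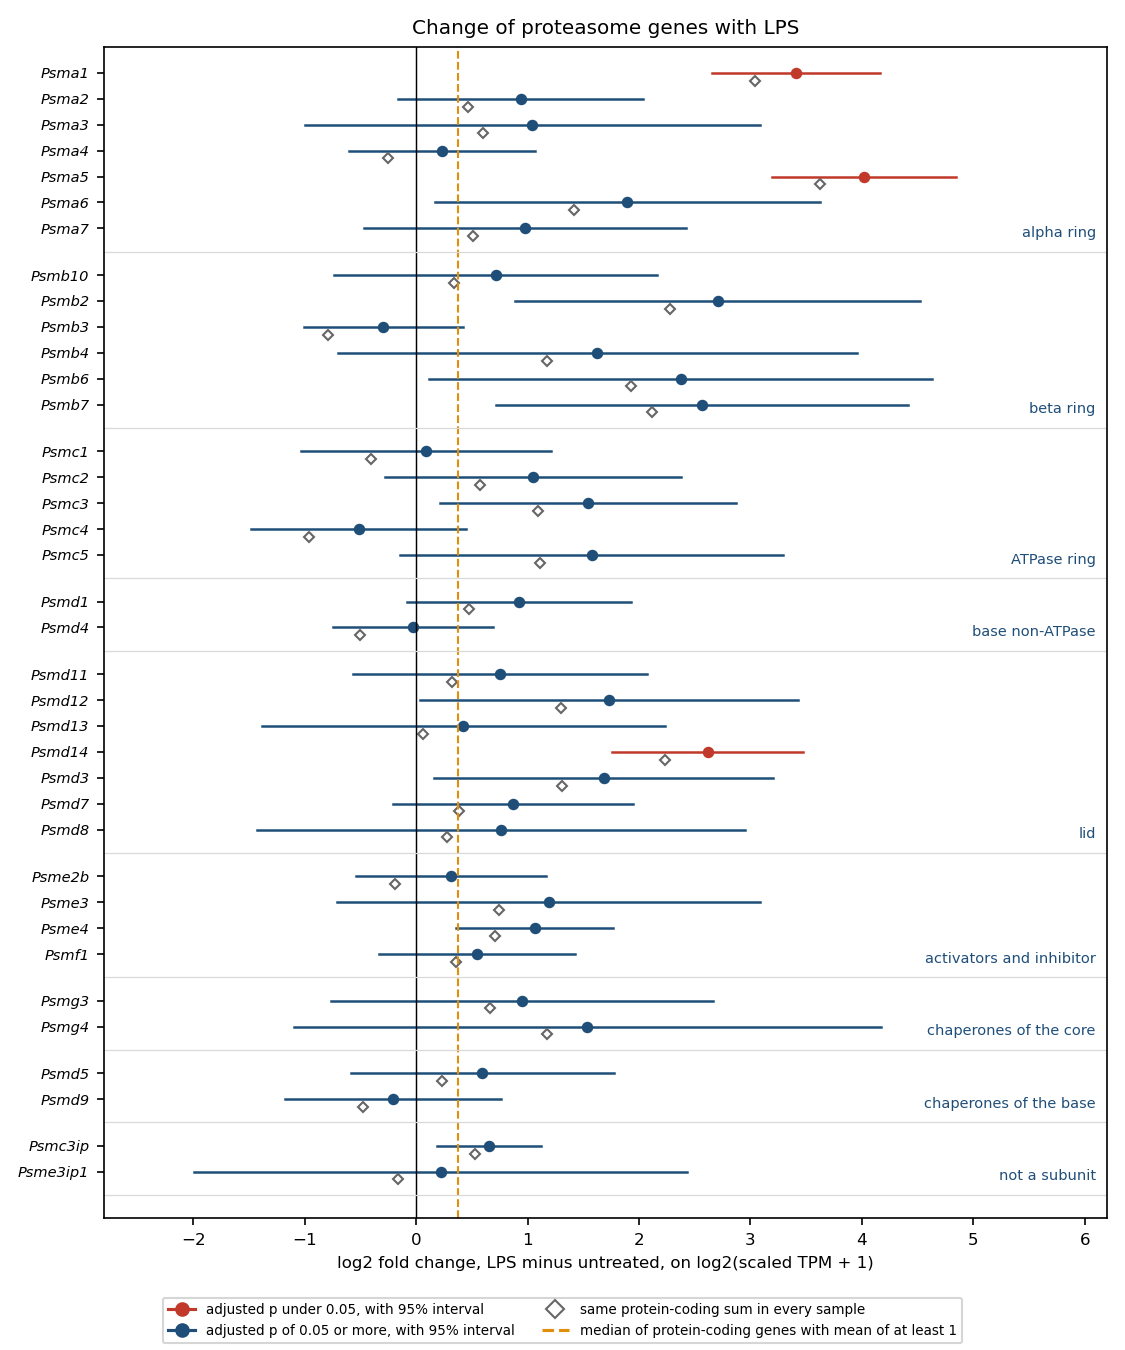
Log2 fold change of each member, LPS minus untreated on log2(scaled TPM + 1), with genes on the y axis. Filled points with lines are the limma estimates and their 95% intervals (red, adjusted p under 0.05), diamonds the estimates with the same protein-coding sum, and the dashed line the median of protein-coding genes with a mean of at least 1 (0.37). The intervals of *Psma5*, *Psma1* and *Psmd14* lie farthest above 0, and those of most other members are wide. Intervals of *Psma6*, *Psmb2*, *Psmb6*, *Psmb7*, *Psmc3*, *Psmd3*, *Psmd12*, *Psme4* and *Psmc3ip*, which are not adjusted for the number of genes, also lie above 0.

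The regulatory particle contains the subunit that cuts ubiquitin chains off a bound protein, the metalloprotease encoded by *Psmd14* in the lid. This gene, at chr2:61542026-61631607 on the plus strand, read 1.86, 0.647 and 1.18 scaled TPM in untreated and 15.4, 9.80 and 12.3 in LPS samples. All 3 LPS samples were more than 5-fold above the highest untreated sample. The means were 1.23 ± 0.606 and 12.5 ± 2.82 scaled TPM (SD, n = 3 each), with a log2 fold change of 2.62 and a standard error of 0.35 (adjusted p = 0.031, limma with Benjamini-Hochberg adjustment). The adjusted p was 0.067 with the same protein-coding sum, 0.117 without LPS sample 1, 0.056 without LPS sample 2, 0.121 without LPS sample 3 and 0.073 without untreated sample 3, and the direction was the same in each of these fits.

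Its partner in the lid, *Psmd7*, read 54.9, 31.4 and 18.3 scaled TPM in untreated and 67.0, 57.6 and 52.5 in LPS samples. Untreated sample 1 reached into the LPS range, and the log2 fold change was 0.87 (adjusted p = 0.377 by limma). *Psmd12*, a structural subunit of the lid, read 4.99, 17.3 and 1.80 against 24.3, 17.7 and 22.8 scaled TPM. The highest untreated and the lowest LPS sample, both numbered 2, nearly met without overlap, and the log2 fold change was 1.73 with a standard error of 0.70 (adjusted p = 0.283 by limma).

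The other 4 lid genes overlapped between groups. *Psmd3* had a log2 fold change of 1.68 (adjusted p = 0.244 by limma), with untreated sample 1 at 6.02 and LPS sample 2 at 5.80 scaled TPM as the only samples out of order. *Psmd11*, whose product clamps the cap to the core, had 0.75, *Psmd8* had 0.76 and *Psmd13* had 0.42, and their untreated samples ranged from 2.67 to 13.9, from 2.29 to 33.5 and from 0.617 to 11.4 scaled TPM. Leaving out untreated sample 2 turned *Psmd8* to −0.28, and leaving out untreated sample 3 turned *Psmd13* to −0.35, so the sign of each depended on 1 sample.

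The ATPases, which unfold the protein and open the gate, gave no call. *Psmc5* read 30.9, 19.4 and 3.96 scaled TPM in untreated and 48.2, 38.1 and 43.6 in LPS samples, and *Psmc3* read 5.82, 1.14 and 6.78 against 14.1, 13.3 and 12.1. In both, all LPS samples were above all untreated samples, with the untreated samples far apart. Their log2 fold changes were 1.58 with a standard error of 0.71 (adjusted p = 0.323 by limma) and 1.55 with a standard error of 0.55 (adjusted p = 0.224 by limma). *Psmc2* also did not overlap, with 7.43 to 31.5 against 37.5 to 40.0 scaled TPM and a log2 fold change of 1.05.

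*Psmc4* was the member with the most negative value. Its scaled TPM were 7.79, 13.4 and 17.4 in untreated and 10.4, 6.03 and 8.99 in LPS samples, with untreated sample 1 inside the range of the LPS samples. This gave a log2 fold change of −0.51 with a standard error of 0.40 (adjusted p = 0.551 by limma), −0.96 with the same protein-coding sum and 0.093 by voom. For *Psmc1* the value was 0.086, and −0.40 with the same protein-coding sum.

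Of the other subunits of the base, the scaffold *Psmd1* read 11.2, 6.90 and 3.69 scaled TPM in untreated and 13.8, 14.1 and 12.7 in LPS samples. The groups did not overlap, and the log2 fold change was 0.93 with a standard error of 0.41 (adjusted p = 0.322 by limma). The ubiquitin receptor *Psmd4* read 20.7, 15.5 and 13.5 against 18.0, 16.0 and 14.2 scaled TPM. Its groups lay over each other, with a log2 fold change of −0.028, a standard error of 0.30 and a 95% interval of −0.75 to 0.69 (adjusted p = 0.968 by limma), and the sign was positive with quantile normalization (0.028) and by voom (0.60).

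The activators replace the regulatory particle at the ends of the core. *Psme4*, the large nuclear activator, read 1.38, 1.29 and 1.52 scaled TPM in untreated and 3.41, 4.96 and 3.79 in LPS samples. It was the only member outside the core and regulatory particle, apart from *Psmc3ip*, whose groups did not overlap, and its untreated samples were close together. The log2 fold change was 1.07 with a standard error of 0.29 (adjusted p = 0.130, limma with Benjamini-Hochberg adjustment).

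*Psme3*, the other nuclear activator, read 21.8, 2.54 and 3.85 scaled TPM in untreated and 19.9, 9.04 and 21.1 in LPS samples. Untreated sample 1 was the highest of all 6, and LPS sample 2 was at 44.1% of the mean of the other LPS samples. Its log2 fold change was 1.19 with a standard error of 0.78 (adjusted p = 0.505 by limma).

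*Psme2b* is an intronless gene close in sequence to *Psme2*, a subunit of the interferon-inducible activator, and read 339, 344 and 590 scaled TPM in untreated and 442, 461 and 649 in LPS samples. The sample numbered 3 was highest in each group, and the groups overlapped. The log2 fold change was 0.31 with a standard error of 0.35 (adjusted p = 0.634 by limma), and −0.19 with the same protein-coding sum. A stretch of 795 bases is 99.4% identical to *Psme2*, which is not analysed here, so the value of *Psme2b* is uncertain.

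The inhibitor gene *Psmf1*, named for its effect on the core in the test tube, was low. It read 1.13, 0.514 and 0.0805 scaled TPM in untreated and 1.38, 0.918 and 1.39 in LPS samples, with untreated sample 1 above LPS sample 2. For *Psmf1* this was a log2 fold change of 0.55 with a standard error of 0.36 (adjusted p = 0.507 by limma).

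The chaperones of the core guide the assembly of the alpha ring. *Psmg3* read 5.04, 0.405 and 0.168 scaled TPM in untreated and 3.02, 2.00 and 4.88 in LPS samples, and *Psmg4* read 0.404, 0 and 13.4 against 10.5, 3.24 and 9.10. In each gene a single untreated sample, number 1 for *Psmg3* and number 3 for *Psmg4*, was above all LPS samples. The log2 fold changes were 0.95 with a standard error of 0.70 (adjusted p = 0.551 by limma) and 1.54 with a standard error of 1.08 (adjusted p = 0.545 by limma). *Psmg4* shares a stretch of at least 95% identity with 61 other genes, 21 of them in the table, and its value is uncertain.

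Of the chaperones of the base, which hold groups of ATPases before the cap is complete, *Psmd5* read 2.09, 0.248 and 2.76 scaled TPM in untreated and 3.00, 2.70 and 2.37 in LPS samples. *Psmd9* read 1.36, 2.67 and 1.02 against 0.828, 0.969 and 2.15. Both groups overlapped in each gene. The log2 fold changes were 0.59 with a standard error of 0.48 (adjusted p = 0.551 by limma) and −0.21 with a standard error of 0.40 (adjusted p = 0.787 by limma), the latter 0.37 by voom and 0.041 without untreated sample 2.

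Neither of the 2 genes that are no subunits was called. *Psmc3ip*, which acts in meiotic recombination, was at 0, 0 and 0.284 scaled TPM in untreated and at 0.566, 0.675 and 0.918 in LPS samples, near the lower end of the table. Its groups did not overlap (log2 fold change 0.66 with a standard error of 0.19, adjusted p = 0.150 by limma). *Psme3ip1*, whose product binds that of *Psme3*, read 1.98, 24.0 and 1.53 against 5.39, 7.03 and 4.82, and untreated sample 2 alone was above the LPS samples. Its log2 fold change was 0.22 with a standard error of 0.91 (adjusted p = 0.908 by limma), and −0.16 with the same protein-coding sum.

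The LPS samples resembled each other more closely than the untreated samples did. The SD over 3 samples on the log2 scale was larger in untreated than in LPS samples in 34 of 37 members, 91.9%, where it was larger in 82.7% of the protein-coding genes with a mean of at least 1. The median SD was 1.02 in untreated and 0.18 in LPS samples over the members, and 0.77 and 0.30 over the protein-coding genes. In the core it was 1.14 and 0.091, and in the regulatory particle 1.02 and 0.17. The highest untreated value was 22.2 times the lowest for *Psmb4*, 21.6 times for *Psmb6* and 18.4 times for *Psmd13*, against 1.10, 1.13 and 1.26 times among LPS samples. The exceptions were *Psmb10*, *Psma5* and *Psme4*, which varied more among LPS samples.

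**Figure D3:**
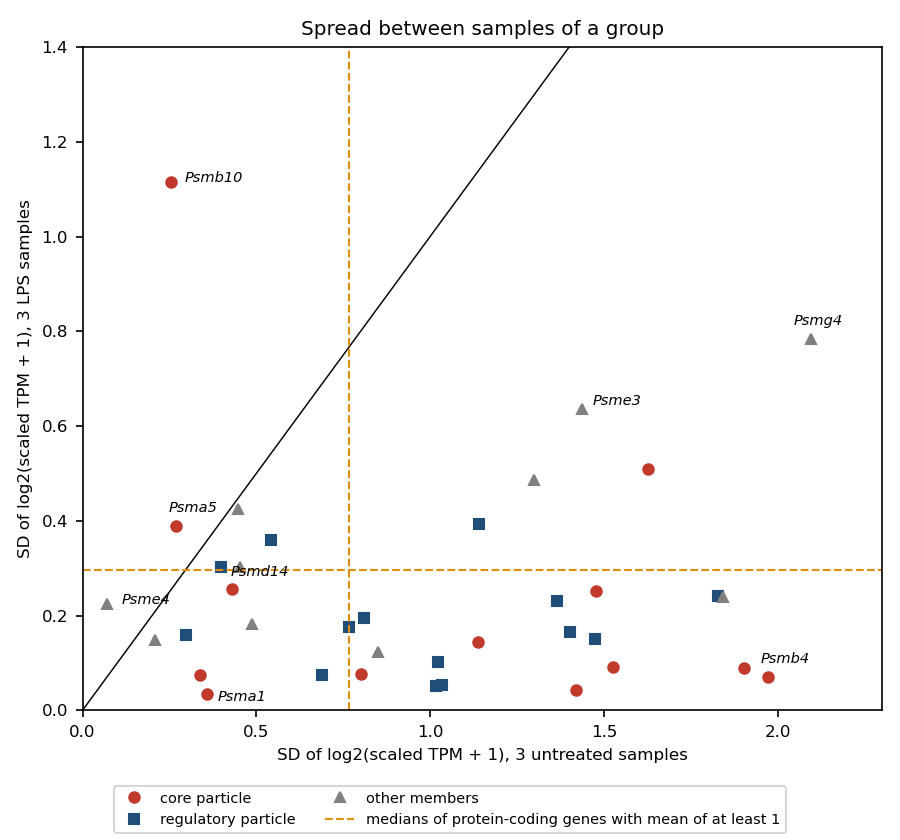
SD of log2(scaled TPM + 1) over the 3 untreated samples (x axis) and over the 3 LPS samples (y axis), 1 point for each of the 37 members. The solid line marks equal SDs and the dashed lines the medians of protein-coding genes with a mean of at least 1 (0.77 and 0.30). Most members lie far below the solid line, and *Psmb10*, *Psma5* and *Psme4* lie above it.

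The lowest untreated sample was not the same in all members. Untreated sample 3 was the lowest of its group in 21 members, 56.8%, against 29.6% of the protein-coding genes, untreated sample 1 in 7 and untreated sample 2 in 8. Untreated samples 1, 2 and 3 reached or passed the lowest LPS sample in 13, 11 and 9 of the 37 members, 35.1%, 29.7% and 24.3%, against 47.6%, 45.5% and 48.8% of the protein-coding genes. Over the log2 values of the 37 members, Pearson's r was 0.957 to 0.988 between LPS samples, 0.653 to 0.682 between untreated samples and 0.654 to 0.783 between the groups. These are descriptions across genes, which are not independent and share the level that each gene keeps in all samples. LPS sample 2 was the lowest of its group in 19 of 37 members, 51.4%, and in 69.2% of the core, against 45.6% of the protein-coding genes. Beside *Psmb10* and *Psme3*, it stood at 33.1% of the mean of the other LPS samples for *Psmg4*, 50.6% for *Psmg3* and 52.8% for *Psma3*.

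Processed pseudogenes, copies of spliced transcripts that went back into the genome, are common for proteasome genes, and reads can be split between a gene and its copy. Pseudogenes took 63.5% to 67.9% of the summed values in untreated and 31.7% to 38.8% in LPS samples. Other genes with a near-identical stretch, with at least 95% identity, were found for 9 of the subunit, activator and chaperone genes. Those of *Psmg4* are not annotated as pseudogenes, and that of *Psme2b* is the protein-coding gene *Psme2*. *Psma3* is 96.5% identical to *Gm13835*, which read 19.3, 37.0 and 0 scaled TPM in untreated and 87.0, 64.8 and 64.4 in LPS samples. *Psma3* has 130 annotated transcripts in GENCODE M39, and the number behind its deposited value is unknown. Because of the averaging, its level is not compared with that of the copy. With the copy added, *Psma3* read 48.5, 44.5 and 2.19 against 111, 76.7 and 85.4, and the groups no longer overlapped. The log2 fold change was then 2.24 with a standard error of 1.09 (adjusted p = 0.36 by limma). With its copy *Gm6474* added, *Psma2* went from 0.94 to 0.77, and untreated sample 2, at 36.7, lay above every LPS sample. Such sums join rows with different numbers of transcripts, so they are uncertain. For *Psma5* the copies *Psma5-ps* and *Gm12989* were at most 1.12 scaled TPM, and adding them left the groups far apart. No near-identical copy was found for *Psma1* or *Psmd14*.

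The table also holds copies of subunits that are not analysed here, and a pair of them, named after their values were seen, lay in the direction opposite to most members. The pair is shown beside the subunits it copies, each as the window of 90 coding bases with the most differences, on GRCm39 and 5′ to 3′, with the differing bases in capitals. The windows of the copies are chr7:3231217-3231306 and chr10:31126013-31126102, both on the plus strand, and those of the subunits are spliced coding sequence on chromosomes 14 and 16. *Gm3375* copies *Psmb5*, the subunit that cuts after hydrophobic residues, and *Gm5422* copies *Psmd2*, the docking site of ubiquitin shuttles.
Psmb5: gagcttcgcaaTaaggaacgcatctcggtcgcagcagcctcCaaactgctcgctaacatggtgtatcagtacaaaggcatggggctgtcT
Gm3375: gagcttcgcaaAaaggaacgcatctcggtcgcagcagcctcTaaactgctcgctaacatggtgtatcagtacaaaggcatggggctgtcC
Psmd2: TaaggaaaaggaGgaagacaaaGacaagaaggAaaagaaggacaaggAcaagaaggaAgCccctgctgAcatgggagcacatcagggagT
Gm5422: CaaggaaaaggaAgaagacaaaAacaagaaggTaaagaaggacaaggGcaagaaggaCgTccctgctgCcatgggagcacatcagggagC

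Even in these windows the copy differs from the gene at 3 and 9 of 90 bases. *Gm3375* read 521, 658 and 417 scaled TPM in untreated and 177, 269 and 231 in LPS samples. *Gm5422* read 80.7, 65.9 and 69.1 against 24.6, 24.6 and 25.5. In both, every LPS sample was below every untreated one, as in 9.75% of all genes tested. The log2 fold changes were −1.23 with a standard error of 0.32 (adjusted p = 0.115, limma with Benjamini-Hochberg adjustment) and −1.49 with a standard error of 0.25 (adjusted p = 0.052, limma with Benjamini-Hochberg adjustment). With the same protein-coding sum they were −1.73 and −1.98, and passed the limit (adjusted p = 0.035 and 0.040 by limma), where 390 of 23049 genes tested were lower. Pseudogenes as a whole took a smaller share of the summed values in LPS samples, 31.7% to 38.8% against 63.5% to 67.9% in untreated samples. Whether the pair differs from other pseudogenes was not tested. Whether the reads of *Gm3375* and *Gm5422* came from the copy or from the gene cannot be told apart here. A further copy, *Gm10634*, which shares a part of *Psmb5*, was low and did not overlap in the other direction, with 0.952, 0.775 and 1.22 scaled TPM in untreated and 1.60, 1.51 and 3.18 in LPS samples (log2 fold change 0.61, adjusted p = 0.424 by limma).

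**Figure D4:**
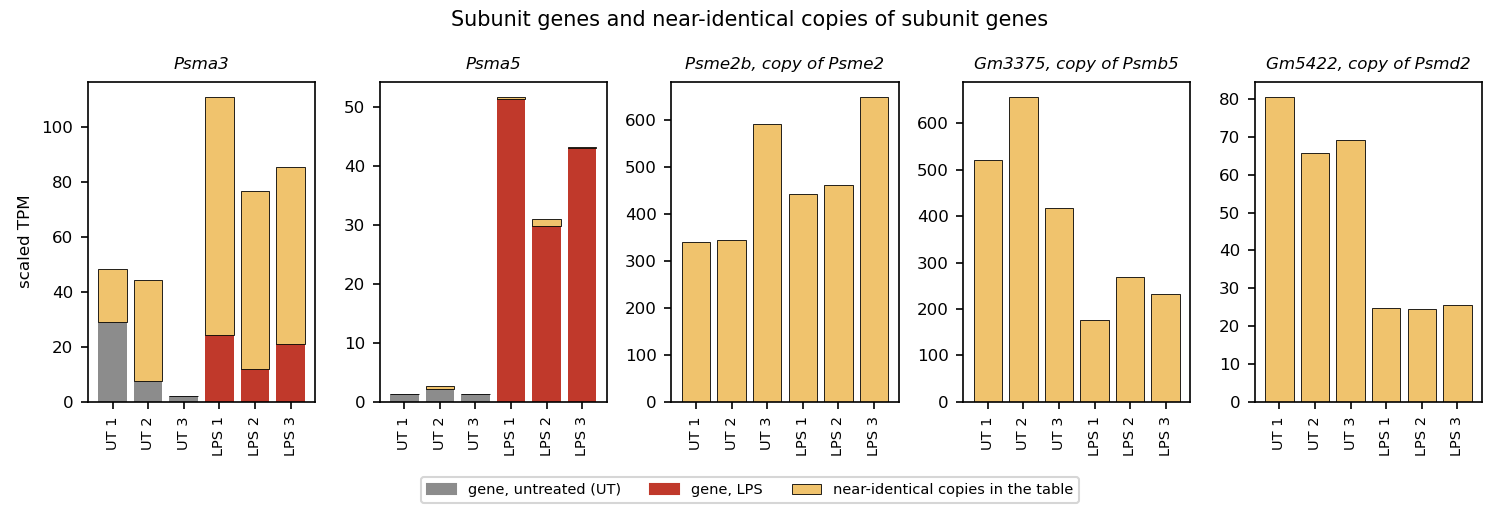
Scaled TPM in each of the 6 samples (bars, from 0) for *Psma3* and *Psma5* with their near-identical copies stacked on top in yellow, and for *Psme2b*, *Gm3375* and *Gm5422*, which are copies of *Psme2*, *Psmb5* and *Psmd2*. UT is untreated. Heights of a gene and its copy are not compared, because a value is read here as a mean over annotated transcripts. The copies of *Psma5* are hardly visible, and *Gm3375* and *Gm5422* are lower in all LPS samples than in all untreated samples.

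Lists of genes that work with the proteasome had medians below that of the 37 members (0.95) and above that of the protein-coding genes with a mean of at least 1 (0.37). With the same protein-coding sum these references were 0.53 and 0.011, and the associated and ubiquitin lists, at 0.029 and 0.035, lay near the protein-coding genes. These differences were not tested. Of 28 listed associated proteins, shuttle factors and regulators, 21 were in the table. At an adjusted p under 0.05, 1 was higher and 0 were lower, beside 2.48% and 0.713% of the protein-coding genes with a mean of at least 1. At an unadjusted p under 0.05, 6 were higher and 0 lower, beside 20.5% and 7.48%. *Ubqln4*, a shuttle that brings ubiquitinated proteins to the proteasome, read 0.387, 0.232 and 0.346 scaled TPM in untreated and 5.04, 3.22 and 4.48 in LPS samples. The groups did not overlap, and the log2 fold change was 1.97 with a standard error of 0.30 (adjusted p = 0.041, limma with Benjamini-Hochberg adjustment). The median of the list was 0.49, and 0.029 with the same protein-coding sum, when no gene of it was called. Without overlap, 6 of 21 genes were above, beside 24.6% of the protein-coding genes with a mean of at least 1, and 1 was below, beside 9.89%. The latter was *Nfe2l1*, a transcription factor of proteasome genes, named after its values were seen, with 19.0, 38.9 and 22.1 against 16.6, 17.8 and 13.1 scaled TPM (log2 fold change −0.66, adjusted p = 0.416 by limma).

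Of 33 ubiquitin genes and activating or conjugating enzymes, 27 were in the table. At an adjusted p under 0.05, 2 of them were higher and 0 lower, beside 2.48% and 0.713% of the protein-coding genes. With the same protein-coding sum these counts were 1 and 1, *Ube2f* higher (adjusted p = 0.031 by limma) and *Ubb* lower (adjusted p = 0.043 by limma). *Ube2f*, which conjugates the ubiquitin-like protein NEDD8, read 4.42, 3.46 and 2.14 scaled TPM in untreated and 25.1, 32.5 and 23.5 in LPS samples. The groups were far apart, with a log2 fold change of 2.71 and a standard error of 0.33 (adjusted p = 0.024, limma with Benjamini-Hochberg adjustment). *Ube2d1*, a ubiquitin-conjugating enzyme, read 0.515, 0.455 and 0.155 against 6.79, 3.87 and 6.75, with a log2 fold change of 2.28 and a standard error of 0.34 (adjusted p = 0.039, limma with Benjamini-Hochberg adjustment). The median of the list was 0.47, and 0.035 with the same protein-coding sum, with 8 of 27 genes above and 2 below without overlap, beside 24.6% and 9.89% of the protein-coding genes. The 2 below, named after their values were seen, were *Ubb*, which encodes a chain of ubiquitin units, with 2411, 3334 and 2258 against 1346, 1498 and 1170 scaled TPM, and *Ube2c*.

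In antigen processing, the step after the proteasome, 11 of 18 listed genes were in the table. None was called at an adjusted p under 0.05 by limma. At an unadjusted p under 0.05, 3 were higher and 1 lower, beside 20.5% and 7.48% of the protein-coding genes with a mean of at least 1. By the limits of the study 1 was called higher, beside 4.89%. With the same protein-coding sum 1 gene was called lower at the adjusted p, *Npepps* (adjusted p = 0.042 by limma). The gene called by the limits of the study was *Tapbpl*, which edits the peptides on MHC class I, with 1.10, 0.857 and 3.06 scaled TPM in untreated and 13.3, 6.87 and 22.6 in LPS samples. Its log2 fold change was 2.46 with a standard error of 0.54 (adjusted p = 0.082, limma with Benjamini-Hochberg adjustment). *Calr*, a chaperone of MHC class I assembly, read 33.1, 20.9 and 19.7 against 106, 61.4 and 90.1 (log2 fold change 1.77, adjusted p = 0.072 by limma). The cytosolic aminopeptidase *Npepps* had the only negative value, with 20.8, 18.7 and 17.1 against 6.24, 9.13 and 5.47 scaled TPM and a log2 fold change of −1.35 (adjusted p = 0.090 by limma). All 3 genes were without overlap. Over the list, 4 of 11 genes were above and 1 below without overlap, beside 24.6% and 9.89% of the protein-coding genes. The median of the list was 0.77, and 0.29 with the same protein-coding sum.

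**Figure D5:**
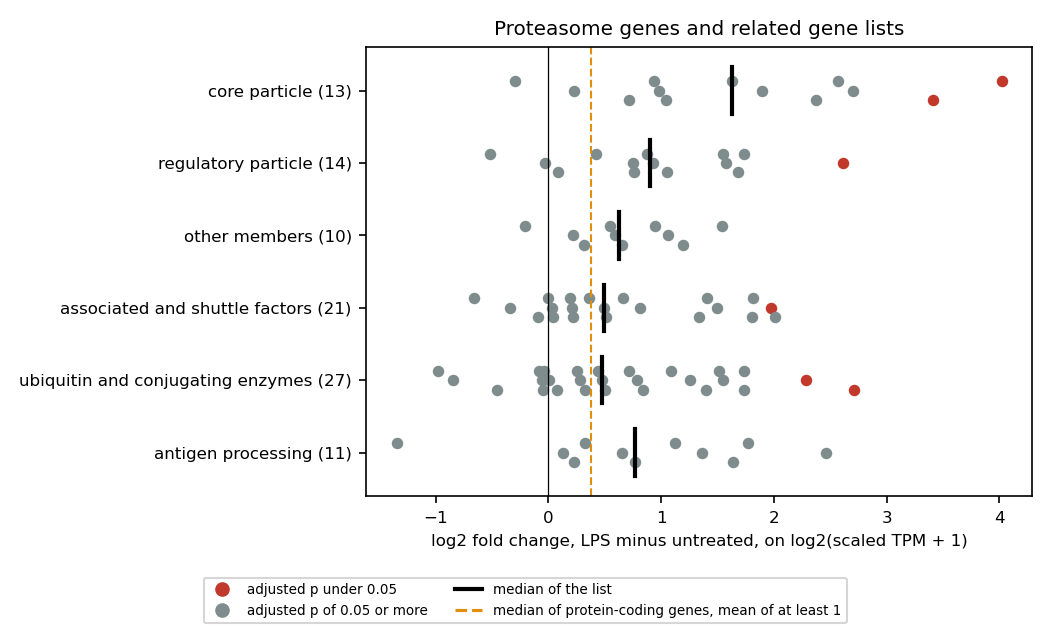
Log2 fold change of single genes, LPS minus untreated on log2(scaled TPM + 1), for the core particle, the regulatory particle, the other members and 3 related lists, with the number of genes in the table in brackets. Red points have an adjusted p under 0.05, short black lines are medians, and the dashed line is the median of protein-coding genes with a mean of at least 1 (0.37). The core particle has the highest median (1.63) and the 2 highest points.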

How the data were processed

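Strand-specific mRNA libraries were sequenced from peritoneal cGAS-/- neutrophils, 3 untreated samples and 3 with LPS, grouped by the sample titles. The authors used fastp and STAR on the reads, estimated transcript abundance with Kallisto, and normalized the result with edgeR. The submitters' processing notes name the builds GRCm39 and mm10. The annotation release, the tool versions and the strand setting of Kallisto are not given in the sources used here. The deposited values are read here as TPM, each the mean of a gene's transcripts after division by a factor of the sample, which was inferred from the values. In the third untreated column, 42.8% of 1391 long values are a number of 6 digits over a whole number of at most 60, against 0.0166% of 6010 in the first. Counts and depth cannot be recovered, so the spread between samples is the only measure of precision. The study also states 2 different sequencers.

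The 23049 genes above 0 in at least 1 sample were tested two-sided without covariates, with the functions lmFit and eBayes (trend on) of limma 3.58.1 under R 4.3.3, on log2(scaled TPM + 1), which understates the change of low genes, with Benjamini-Hochberg adjustment over all of them. Gene types and GRCm39 coordinates came from GENCODE M39, matched by name for 35599 genes and by identifier for 983. Near-identical copies were sought with blastn 2.17.0, with at least 95% identity over at least 150 bases and 50% of the copy. Promoter windows came from RefSeq on GRCm38.p6, and no coordinates were carried between builds. Several members overlap a gene on the opposite strand in the annotation, among them *Psmb7* and *Nek6*.

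The members and lists were chosen with earlier results of these data known. Every member is named. Values in all samples are given for called members, the largest 2 rises and largest fall of each class, *Psmb7*, *Psmb10*, and the activators and inhibitor, and for other lists the genes with an adjusted p under 0.05 or, where there are none, the 2 with the largest change in each direction. Alternatives were pseudocounts of 0.1 and 5, a mean of at least 1, 3 other scalings, eBayes without a trend, voom, a block and leaving out each sample. Python 3.11.15, pandas 2.3.3, numpy 2.4.6 and matplotlib 3.10.9 were used.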

Additional observations from a re-analysis of the deposited data

How the results depend on the processing

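The 3 calls by the limits of the study (p under 0.01 and a log2 fold change beyond 2) became 11 by voom, which also rescales each sample to the same sum and moves the median of all genes from 0.013 to 0.67, and 5 by voom with the deposited scaling, an alternative added after seeing the data, as was the addition of copies. When 1 sample was left out they ranged from 3 to 6, with 6 without untreated sample 1 or 2. The 3 calls at an adjusted p under 0.05 became 18 by voom and 0 without LPS sample 1 or 3, and ranged from 0 to 4. The 14 members above without overlap became 9 with the same protein-coding sum (with 2 below) and 24 by voom, and ranged from 14 to 20, with 0 to 1 below, when 1 sample was left out. The share of all genes without overlap was not counted under these alternatives. With 1 sample fewer, the groups of any gene lie apart more easily, so these counts are no result about the members. The medians of all members, the core and the regulatory particle were 1.66, 2.36 and 1.55 by voom, with shifts of all genes not removed, and that of the regulatory particle was 0.43 with the same protein-coding sum. Leaving out 1 sample gave 0.79 to 1.06, 1.39 to 2.28 (the highest without untreated sample 2) and 0.53 to 1.26. For most of these changes the cause was not tested.

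The replicate numbers of the titles as a block left 0 members called at an adjusted p under 0.05 (lowest 0.081) and 1 gene higher in the whole table. The deviations of same-numbered samples from their group means correlated by 0.102, 0.220 and 0.0925, and those of other pairs by −0.151 to 0.0658. Every sample thus correlated best with its own number. The sources state no pairing, and whether the samples were paired cannot be told from these values.

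Signs changed for members with small values. *Psme3ip1* was −0.035 with a pseudocount of 5. With the same protein-coding sum *Psma4* was −0.25, *Psmc1* −0.40, *Psme2b* −0.19 and *Psme3ip1* −0.16. *Psmd4* was 0.028 with quantile normalization, and by voom *Psmb3* was 0.33, *Psmc4* 0.093, *Psmd4* 0.60 and *Psmd9* 0.37. When 1 sample was left out, *Psma4* ranged from −0.0033 to 0.42, *Psmc1* from −0.21 to 0.55, *Psmd4* from −0.16 to 0.13, *Psmd8* from −0.28 to 1.41, *Psmd9* from −0.45 to 0.041, *Psmd13* from −0.35 to 1.11 and *Psme3ip1* from −0.37 to 1.28. Of the other values of single members under these alternatives, without the added ones, 502 kept sign and side of the limit, 18 newly passed it and 12 no longer did.

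In the whole table the calls at an adjusted p under 0.05, 206 higher and 218 lower, became 557 and 483 with a mean of at least 1, 119 and 390 with the same protein-coding sum, 687 and 611 without a trend, 8941 and 452 by voom, 487 and 373 by voom with the deposited scaling and 1 and 15 with the block, and ranged from 1 to 230 and from 7 to 256 when 1 sample was left out. By the limits of the study, 389 and 301 became 856 and 493 with a pseudocount of 0.1, 129 and 168 with 5, 216 and 519 with the same protein-coding sum, 1552 and 177 by voom and 586 and 386 by voom with the deposited scaling. With no counts, precision at low values is unknown.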

Other observations

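Of the 3 rows of the table marked as pseudogenes of proteasome subunits, *Psmb6-ps2* was at 0 in all 6 samples and *Psma5-ps* reached at most 1.12 scaled TPM. *Psmb5-ps* read 6.60, 9.73 and 2.73 scaled TPM in untreated samples 1, 2 and 3, and 0.264, 3.79 and 0.878 in LPS samples 1, 2 and 3, with LPS sample 2 above untreated sample 3.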
